A study of Homo sapiens with 15 samples.

Results

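The direct contrast of rocaglamide (Roc) with didesmethylrocaglamide (DDR) in MG-63 cells, a human osteosarcoma line, rests on 4 of the 15 RNA-seq libraries of the series: 2 of cells given 25 nM Roc and 2 of cells given 5 nM DDR, each for 24 h. All genes of the count table entered it, and the libraries were chosen by their labels alone. Beside them stand the 2 MG-63 libraries of cells given the vehicle, 0.04% DMSO, and 9 libraries of Saos2, a second human osteosarcoma line, given 40 nM Roc, 7 nM DDR or DMSO for the same time (3 each). Each concentration is the IC50 for growth of that line in the study, so the doses of Roc and DDR were not matched, and compound and dose cannot be told apart in any difference below. With 1 pair of compounds per line, 1 comparison of compounds was made in each. How far growth was inhibited was not analysed here.

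Roc and DDR are rocaglates, plant-derived inhibitors of the RNA helicase eIF4A. They clamp eIF4A onto purine-rich stretches of messenger RNA, which blocks the scanning ribosome and lowers translation of many transcripts, including those of short-lived growth and survival proteins. The compounds share the rocaglate core. Roc carries a dimethylamide where DDR has the unsubstituted amide. Sequencing of polyadenylated RNA counts transcripts, so it shows what followed at the RNA level and not how well each transcript was translated.

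The MG-63 libraries held 24,506,297 and 34,113,422 counts for Roc, 39,200,617 and 39,311,375 for DDR, and 35,497,975 and 42,541,127 for DMSO. The labels mark the libraries as biological replicates (1 MG-63 Roc library as a replicate without that word) and do not describe the cultures, so p-values measure the spread between these libraries. All 13 mesenchymal and osteoblast-lineage markers averaged over 1 CPM (counts per 1e6, scaled by TMM), with summed levels of 15,373 and 17,273 CPM with Roc, 16,531 and 17,134 CPM with DDR, and 13,463 and 13,471 CPM with DMSO. Markers of epithelial and of blood cells summed to at most 0.901 and 0.909 CPM in any of the 6 libraries. Summed levels were 26.4 and 29.4 CPM with Roc, 28.6 and 31.8 CPM with DDR, and 16.5 and 17.2 CPM with DMSO for endothelial markers, and 184 and 209 CPM with Roc, 219 and 207 CPM with DDR, and 102 and 102 CPM with DMSO for neuronal markers, and those of osteoclasts lay between 8.09 and 11.3 CPM. The part of such cells in any result was not tested. No member of any marker list was called between the compounds. DDR replicate 2 carried a small set of genes, described below, far above the other treated libraries. Replicates also differed more broadly, as the principal components given below show. In bulk RNA, fewer cells of a type and less RNA per cell cannot be told apart.

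Few transcripts were called different between the compounds. Of 12,247 protein-coding genes tested, 59 were higher with Roc than with DDR (0.482%) and 79 were lower (0.645%), 138 in all (1.13%), where a call needed an adjusted p of at most 0.05 in edgeR's quasi-likelihood test and an absolute log2 fold change (Roc minus DDR) of at least 0.5. The genes lower with Roc included the interferon-induced IFIT2 and IFIT3, the transcription factor JUN, the growth factor FGF5 and the co-receptor GFRA1. Those higher with Roc included RGS17, SEMA6D, the mitotic kinesin KIF14 and ASNS, the asparagine synthetase. Median changes of called genes were 0.63 for the higher and -0.62 for the lower, and 4 higher and 14 lower genes differed by at least 1 on the log2 scale.

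The count of calls turned on single libraries. It was 54 when DDR replicate 2 was left out, 104 without Roc replicate 2, 208 without Roc replicate 1 and 262 when DDR replicate 1 was left out, and 28 of the 138 genes (11 higher, 17 lower) stayed called whichever 1 of the 6 libraries was left out. Scaling by total counts alone gave 80 higher and 59 lower genes, against 59 and 79 with TMM scaling, so the split between the directions depended on the scaling. With no fold minimum, 580 genes passed (4.74%).

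**Figure D1:**
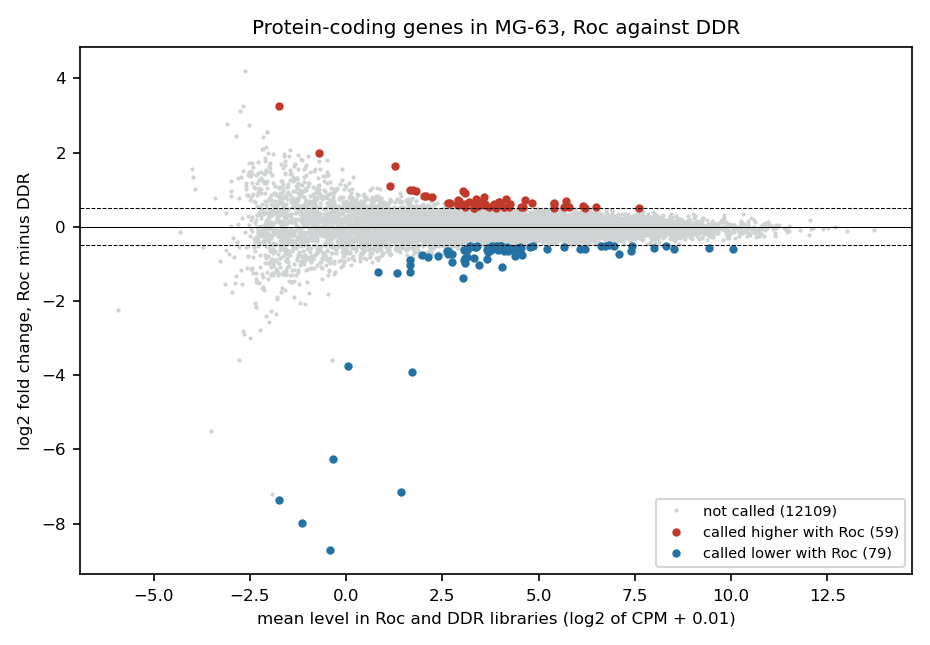
Each point is 1 of 12,247 protein-coding genes, with its mean level over the 4 Roc and DDR libraries on the horizontal axis (log2 of CPM + 0.01) and its fitted log2 fold change, Roc minus DDR, on the vertical axis. Dashed lines mark changes of 0.5 either way. The 59 genes called higher and 79 called lower lie mostly within 1 of zero on the vertical axis, and 18 of them (4 higher, 14 lower) lie further out, among them genes of low level whose fitted values depend on the prior count.

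IFIT2 and IFIT3, which are interferon-stimulated, gave the smallest p values of the contrast. IFIT2 and IFIT3 encode cytoplasmic proteins induced by interferon, of which IFIT2 is known to bind RNA, and they lie side by side on the plus strand of chromosome 10 (GRCh37, 91043451 to 91069028 and 91087064 to 91137230). IFIT2 had 104 and 99.0 CPM with Roc, against 169 and 168 CPM with DDR and 34.7 and 36.1 CPM with DMSO. IFIT3 had 133 and 129 CPM with Roc, against 205 and 204 CPM with DDR and 50.5 and 53.2 CPM with DMSO. Both genes thus lay above vehicle with each compound and lower with Roc than with DDR, with no overlap between groups, by log2 fold changes of -0.74 ± 0.07 (SE, adjusted p = 9.39e-06) and -0.64 ± 0.07 (adjusted p = 4.05e-05). Each shares exonic bases with LIPA on the other strand.

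The third called member was IRF1, a transcription factor that activates interferon-stimulated genes, with 16.8 and 15.8 CPM with Roc, against 27.6 and 22.7 CPM with DDR and 9.79 and 8.65 CPM with DMSO. It was lower with Roc by a log2 change of -0.63 ± 0.12 (adjusted p = 0.00394), a call lost without DDR replicate 1. Every count of list members called between the compounds stands beside 0.482% higher and 0.645% lower of all protein-coding genes. The lists were chosen with earlier results of these data known. Of 46 interferon-stimulated genes tested, 0 were called higher and 3 lower with Roc. Their median change was -0.14, beside -0.01 over all protein-coding genes, and 8 were positive. IFIT1, a sensor of viral RNA named after its values were seen, did not reach the fold minimum, with 102 and 110 CPM with Roc, against 140 and 132 CPM with DDR (log2 change -0.36 ± 0.08, adjusted p = 0.00897). Against DMSO, 24 of the 46 were called higher with Roc and 27 with DDR (beside 5.22% and 10.6% of all protein-coding genes), with medians of 0.64 and 0.75.

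The promoter of IFIT3 is shown for the response element by which interferon-activated factors bind such genes. In the stretch below (RefSeq, GRCh38.p14, chr10:89327831-89327860, plus strand, 5′ to 3′), capitals mark a match to 2 copies of GAAA with any 2 bases between them, which lies on the opposite strand, at 156 to 147 bases before the start.
IFIT3: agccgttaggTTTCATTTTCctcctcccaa
Both strands of the 300 bases around each start were searched, from 250 before it to 50 after. IFIT3 held 2 such matches, and it was the 1 of 62 promoters of genes called lower that held any (the promoter of IFIT2 was not searched here), against 1 of 44 promoters of genes called higher and 3.65% of 27,305 promoters in the table. A match describes the letters and is no evidence of binding.

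**Figure D2:**
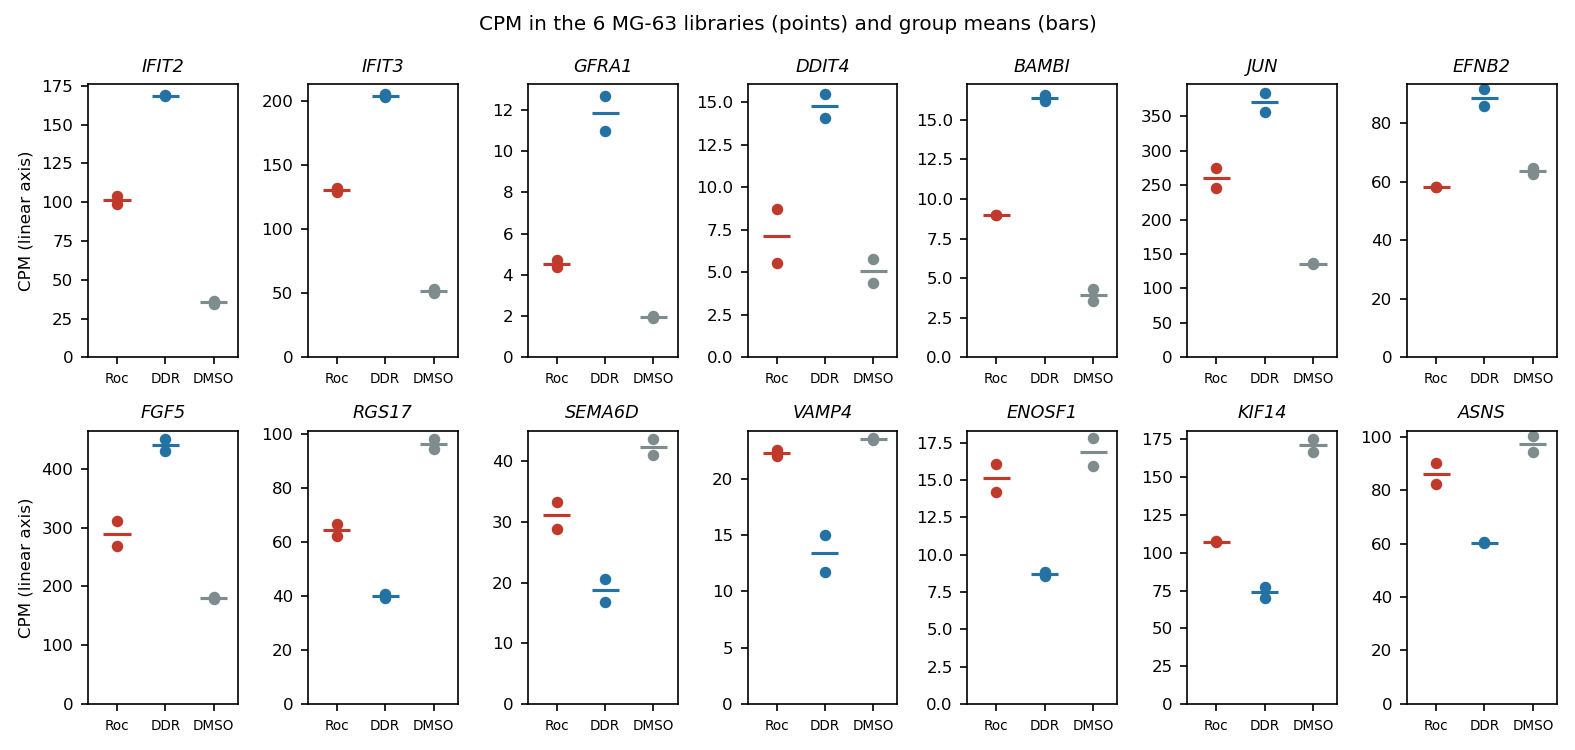
Each panel gives the CPM of 1 gene in the 2 Roc (red), 2 DDR (blue) and 2 DMSO (grey) libraries of MG-63 on a linear axis from 0, with bars at the group means. IFIT2, IFIT3, GFRA1, DDIT4, BAMBI, JUN, EFNB2 and FGF5 lay lower with Roc than with DDR, and RGS17, SEMA6D, VAMP4, ENOSF1, KIF14 and ASNS higher, with no overlap between these 2 groups in any panel.

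Growth factor and receptor genes were among those lower with Roc. GFRA1, the GDNF co-receptor that signals through RET (chromosome 10, minus strand, 117816436 to 118036315, GRCh37), had 4.70 and 4.38 CPM with Roc, against 11.0 and 12.7 CPM with DDR and 2.00 and 1.90 CPM with DMSO. Its log2 change of -1.38 ± 0.17 (adjusted p = 0.000115) was the largest negative one among genes of at least 2 CPM whose groups did not overlap. FGF5, a fibroblast growth factor, had 311 and 268 CPM with Roc, against 451 and 430 CPM with DDR and 179 and 182 CPM with DMSO (log2 change -0.61 ± 0.08, adjusted p = 0.000156). It overlaps CFAP299 on the same strand. For both genes Roc lay between DDR and DMSO.

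EFNB2, the membrane-bound ligand of EPH receptors, differed in that Roc left it near vehicle. It had 58.2 CPM in both Roc libraries, against 85.9 and 91.6 CPM with DDR and 62.7 and 64.6 CPM with DMSO (log2 change -0.61 ± 0.08, adjusted p = 0.000128). Neither compound was called against DMSO for this gene. DAB2, an endocytic adaptor, had 586 and 526 CPM with Roc, against 810 and 826 CPM with DDR and 321 and 317 CPM with DMSO (log2 change -0.56 ± 0.07, adjusted p = 0.000296, lost without Roc replicate 2). NRG1, a ligand of ERBB receptors, had 14.2 and 12.4 CPM with Roc, against 20.3 and 21.2 CPM with DDR (log2 change -0.64 ± 0.12, adjusted p = 0.00394, lost without Roc replicate 2). It overlaps an unnamed gene on its own strand.

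Of 21 secreted cytokines and growth factors tested, 0 were higher and 2 lower (FGF5 and NRG1), with a median of -0.15, and of 22 receptor tyrosine kinases and co-receptors 0 were higher and 1 lower (GFRA1), with a median of -0.12. FGF2 and IGFBP3 were named after their values were seen. FGF2, a fibroblast growth factor that overlaps NUDT6 on the other strand, had a log2 change of -0.46 ± 0.08 (adjusted p = 0.00202), which missed the fold minimum but passed it without DDR replicate 2 or Roc replicate 1. IGFBP3, which binds insulin-like growth factors, was called lower with Roc by -0.59 ± 0.09 (adjusted p = 0.000704), a call lost without DDR replicate 2. S1PR1, a receptor of sphingosine 1-phosphate, had 1.76 and 1.98 CPM with Roc, against 4.09 and 4.68 CPM with DDR and 0.576 and 0.657 CPM with DMSO (log2 change -1.22 ± 0.26, adjusted p = 0.00994). That call was lost without DDR replicate 2 (-1.13), and DESeq2 gave a change of -1.23 with no adjusted p.

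Immediate early transcription factors were represented among the genes lower with Roc. JUN, a subunit of AP-1 (chromosome 1, minus strand, 59242517 to 59249720, GRCh37), had 274 and 245 CPM with Roc, against 356 and 384 CPM with DDR and 136 and 137 CPM with DMSO. The log2 change was -0.51 ± 0.08 (adjusted p = 0.00052), just past the fold minimum, and the change slipped under that minimum without DDR replicate 2 (-0.46), without Roc replicate 2 (-0.43), with scaling by total counts (-0.48), and after removal of the dependence on transcript length and GC content (-0.49). Of 15 AP-1 and MAF factors tested, JUN was the 1 called lower and 0 were called higher. The median was -0.42, 11 of the 15 were negative, and 5 passed the adjusted p alone. FOS, another AP-1 subunit, was at least 5 times higher in DDR replicate 2 than in every other MG-63 library.

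Among the uncalled AP-1 and MAF factors, FOSL2 had 106 and 107 CPM with Roc, against 136 and 145 CPM with DDR (log2 change -0.39 ± 0.07, adjusted p = 0.00385). FOSL1 and JUNB, named after their values were seen, had changes of -0.44 ± 0.09 and -0.47 ± 0.11 (adjusted p = 0.00989 and 0.0145). Single libraries moved both. FOSL1 was -0.26 without Roc replicate 2 and -0.64 without Roc replicate 1, and JUNB -0.71 and -0.28, the larger value of each being past the call. FOSL1 also passed the call without DDR replicate 1, and JUNB without DDR replicate 2 and in the thinned libraries. All 12 KLF zinc finger factors tested were negative (median -0.24), of which 2 were called lower and 0 higher.

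KLF5, the KLF factor with the larger of the called differences, had 14.9 and 13.9 CPM with Roc, against 24.3 and 21.1 CPM with DDR and 6.75 and 5.35 CPM with DMSO (log2 change -0.66 ± 0.13, adjusted p = 0.00431). KLF13 had 19.17 and 18.5 CPM with Roc, against 26.3 and 28.1 CPM with DDR and 11.99 and 10.4 CPM with DMSO (log2 change -0.53 ± 0.11, adjusted p = 0.00722). The KLF5 call held with each library left out, whereas that of KLF13 was lost without DDR replicate 2 or Roc replicate 2 and after removal of the length and GC dependence. ELF1, an ETS family factor, had 96.1 and 92.2 CPM with Roc, against 136 and 130 CPM with DDR and 51.1 and 52.6 CPM with DMSO (log2 change -0.50 ± 0.07, adjusted p = 0.00052). Its change lay at the fold minimum, and the call was lost without DDR replicate 1 or Roc replicate 2 and with scaling by total counts. Of 16 other immediate early genes tested, 0 were higher and 1 lower, IER5L (3.88 and 5.25 CPM with Roc, against 8.79 and 8.89 CPM with DDR, log2 change -0.94 ± 0.20, adjusted p = 0.00897, lost without Roc replicate 1). Their median was -0.25.

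Genes of TGF-beta and BMP signalling, of YAP output and of the actin cytoskeleton included several of the firmer calls. BAMBI, a pseudoreceptor that dampens TGF-beta and BMP signals, had 8.99 CPM in both Roc libraries, against 16.6 and 16.2 CPM with DDR and 3.57 and 4.29 CPM with DMSO (log2 change -0.87 ± 0.14, adjusted p = 0.00109). AJUBA, a LIM protein that binds LATS kinases, had 14.96 and 15.8 CPM with Roc, against 27.5 and 25.4 CPM with DDR and 7.95 and 7.67 CPM with DMSO (log2 change -0.78 ± 0.11, adjusted p = 0.000507). CDC42EP1, an effector of the GTPase CDC42, had 16.8 and 18.1 CPM with Roc, against 27.3 and 32.4 CPM with DDR and 8.31 and 7.998 CPM with DMSO (log2 change -0.77 ± 0.11, adjusted p = 0.00052). All 3 lay between DDR and DMSO with Roc and stayed called with each library left out. AJUBA overlaps an unnamed gene on its own strand.

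AMOTL2, a YAP-binding angiomotin, had 84.1 and 77.4 CPM with Roc, against 114 and 116 CPM with DDR and 56.4 and 56.1 CPM with DMSO (log2 change -0.51 ± 0.07, adjusted p = 0.00052). It lost its call without DDR replicate 2 or Roc replicate 2, with scaling by total counts, in the thinned libraries and after removal of the length and GC dependence. Of 44 TGF-beta and BMP genes tested, 0 were higher and 2 lower, BAMBI among them, with a median of -0.13 and 12 positive. Of 27 YAP targets and cytoskeletal genes, 0 were higher and 2 lower (AJUBA and AMOTL2), with a median of -0.13. Against DMSO, 9 of the 44 TGF-beta and BMP genes were called higher with Roc and 21 with DDR (beside 5.22% and 10.6% of all protein-coding genes), and 0 lower with either (beside 2.60% and 7.28%).

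Stress genes moved both ways, more of them lower than higher with Roc. DDIT4, an inhibitor of mTORC1 that ATF4 induces, had 5.56 and 8.72 CPM with Roc, against 14.1 and 15.5 CPM with DDR and 5.79 and 4.36 CPM with DMSO, and was lower with Roc by a log2 change of -1.03 ± 0.17 (adjusted p = 0.00186). ASNS, an ATF4 target that makes asparagine, had 90.2 and 82.3 CPM with Roc, against 60.7 and 60.1 CPM with DDR and 94.4 and 100.2 CPM with DMSO, and was higher with Roc by 0.51 ± 0.08 (adjusted p = 0.000691). Against DMSO, DDIT4 was called higher and ASNS lower with DDR, and neither was called with Roc (0.52 for DDIT4, -0.18 for ASNS). The DDIT4 call held with each library left out, and the ASNS call was lost without DDR replicate 2 or Roc replicate 1, with no filter on low counts, when libraries were thinned to the smallest total, and after removal of the length and GC dependence.

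Of 32 genes of the integrated stress response and ATF4 targets tested, ASNS was the 1 called higher and DDIT4 the 1 called lower. The median was -0.17 and 21 of the 32 were negative. By the adjusted p alone 9 passed, 2 higher and 7 lower with Roc. Among these, named after their values were seen, PSAT1, an enzyme of serine synthesis, had a log2 change of 0.41 ± 0.08 (adjusted p = 0.004), while SLC7A5, an amino acid transporter, had -0.41 ± 0.08 (adjusted p = 0.00612), called without DDR replicate 1 (-0.53). ATF4 itself had 127 and 126 CPM with Roc, against 149 and 164 CPM with DDR and 125 and 135 CPM with DMSO (log2 change -0.31 ± 0.08, adjusted p = 0.0226). The ATF4-bound element of the ASNS promoter is shown with its match to TGATGNAA in capitals, at 68 to 61 bases before the start (RefSeq, GRCh38.p14, chr7:97872457-97872486, minus strand, 5′ to 3′).
ASNS: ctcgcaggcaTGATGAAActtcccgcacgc
ASNS was the 1 of 44 promoters of genes called higher with these letters on either strand, against 0 of 62 of genes called lower and 3.67% of the 27,305 in the table.

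DNA damage and p53-linked genes gave 0 higher and 3 lower calls of 25 tested, with a median of -0.11 that turned to 0.027 in 1 of 17 other settings. Their signs were split, with 12 positive and 13 negative. By the adjusted p alone, 2 were higher and 4 lower with Roc. GADD45B, a stress sensor that activates MAP kinase signalling, had 16.0 and 16.3 CPM with Roc, against 24.0 and 24.7 CPM with DDR and 13.3 and 13.6 CPM with DMSO (log2 change -0.59 ± 0.11, adjusted p = 0.00292). GADD45A, its relative, had 18.9 and 18.6 CPM with Roc, against 26.6 and 28.7 CPM with DDR and 14.0 and 14.4 CPM with DMSO (log2 change -0.56 ± 0.10, adjusted p = 0.00359). SESN2, a sestrin that restrains mTORC1, had 6.38 and 5.81 CPM with Roc, against 10.3 and 11.4 CPM with DDR and 3.37 and 3.94 CPM with DMSO (log2 change -0.83 ± 0.16, adjusted p = 0.00447). In all 3 genes both Roc libraries lay between the DDR and the DMSO libraries. GADD45B stayed called with each library left out, and the calls of GADD45A and SESN2 were lost without DDR replicate 2.

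Further genes lower with Roc lay outside the lists described so far. LBH, a transcriptional cofactor, had 12.9 and 8.37 CPM with Roc, against 22.2 CPM in both DDR libraries and 5.98 and 5.84 CPM with DMSO (log2 change -1.08 ± 0.15, adjusted p = 0.000428). GALNT3, a glycosyltransferase that begins mucin-type O-glycosylation, had 5.85 and 5.602 CPM with Roc, against 10.3 and 12.02 CPM with DDR and 3.76 and 5.63 CPM with DMSO (log2 change -0.97 ± 0.18, adjusted p = 0.00333). Both stayed called with each library left out, and the Roc libraries of GALNT3 overlapped the range of DMSO. PLEKHF1 and ZNF672 were also called with each library left out, with log2 changes of -0.83 ± 0.16 and -0.82 ± 0.16.

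Of the 59 genes higher with Roc, 43 were called lower with DDR against DMSO, beside 7.28% of all protein-coding genes. Both contrasts use the same DDR libraries, so picking genes with low DDR levels favours a fall against DMSO. RGS17, which speeds the shut-off of G protein signals (chromosome 6, minus strand, 153325594 to 153452417, GRCh37), had 66.8 and 62.3 CPM with Roc, against 40.6 and 39.3 CPM with DDR and 94.7 and 98.3 CPM with DMSO. It had the smallest p of the genes higher with Roc (log2 change 0.69 ± 0.08, adjusted p = 4.05e-05). SEMA6D, a transmembrane semaphorin, had 28.9 and 33.4 CPM with Roc, against 20.7 and 16.9 CPM with DDR and 43.7 and 41.1 CPM with DMSO (log2 change 0.73 ± 0.11, adjusted p = 0.00052). Both genes fell with DDR against DMSO, and with Roc only RGS17 was called.

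VAMP4, a SNARE of the trans-Golgi network, had 22.04 and 22.5 CPM with Roc, against 15.02 and 11.7 CPM with DDR and 23.6 and 23.5 CPM with DMSO (log2 change 0.74 ± 0.12, adjusted p = 0.00114). ENOSF1, an enolase superfamily member that overlaps TYMS on the other strand, had 14.2 and 16.1 CPM with Roc, against 8.82 and 8.60 CPM with DDR and 17.8 and 16.0 CPM with DMSO (log2 change 0.80 ± 0.13, adjusted p = 0.00109). FAM218A had 3.76 and 3.53 CPM with Roc, against 1.16 and 1.18 CPM with DDR and 4.03 and 4.69 CPM with DMSO (log2 change 1.64 ± 0.25, adjusted p = 0.000837). For these 3 genes Roc was not called against DMSO, whereas DDR was called lower. They stayed called between the compounds with each library left out, as did RGS17 and SEMA6D.

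The 24 collagen chains tested gave 1 higher and 1 lower call, and 33 other matrix genes 1 higher and 3 lower. The lower calls include COL11A1 and HAPLN1, which depend on DDR replicate 2 (below). COL4A5, a basement membrane collagen chain, had 9.28 and 12.6 CPM with Roc, against 5.99 and 5.78 CPM with DDR and 14.6 and 17.4 CPM with DMSO (log2 change 0.91 ± 0.16, adjusted p = 0.00202, lost without Roc replicate 2). NID2, a nidogen that overlaps RTRAF on the other strand, was higher with Roc by 0.62 ± 0.17 (adjusted p = 0.035). SEMA4B, from the semaphorin and axon guidance list, was higher by 0.61 ± 0.17 (adjusted p = 0.0411). Both calls were lost without DDR replicate 2, without Roc replicate 2 (0.40 for NID2 and 0.30 for SEMA4B), in a fit of the 4 Roc and DDR libraries alone and in thinned libraries, and that of SEMA4B also in limma-voom and without DDR replicate 1. THBS1, a matrix glycoprotein that overlaps FSIP1 on the other strand, went the other way, with 146 and 139 CPM with Roc, against 185 and 223 CPM with DDR and 103 and 117 CPM with DMSO (log2 change -0.52 ± 0.09, adjusted p = 0.00159). Its call was lost without DDR replicate 2, without Roc replicate 2 and with scaling by total counts.

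Most mitotic genes tested had positive changes, few of them called. KIF14, a kinesin of the midzone and midbody, had 108 and 107 CPM with Roc, against 77.5 and 70.0 CPM with DDR and 175 and 167 CPM with DMSO (log2 change 0.54 ± 0.08, adjusted p = 0.000462). HMMR, a hyaluronan receptor that also acts at the spindle, had 230.2 and 227 CPM with Roc, against 162 and 160.0 CPM with DDR and 382 and 424 CPM with DMSO (log2 change 0.51 ± 0.07, adjusted p = 0.00052). Both fell against DMSO with each compound, less with Roc. Both calls were lost without DDR replicate 2 and after removal of the length and GC dependence, and that of HMMR also without Roc replicate 1, with DESeq2 and with its size factors.

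Of 40 genes of G2/M and mitosis tested, HMMR was the 1 called higher and 0 were called lower, 34 were positive, 12 passed the adjusted p alone, and the median was 0.19, beside -0.01 over all protein-coding genes, of which 48.5% were positive. CENPE and CCNB1, a kinetochore motor and cyclin B1, named after their values were seen, had changes of 0.40 ± 0.08 and 0.34 ± 0.07 (adjusted p = 0.00394 and 0.00759). Against DMSO, 1 of the 40 was called lower with Roc and 9 with DDR (beside 2.60% and 7.28% of all). DNA replication genes and E2F targets gave 0 calls of 47 and a median of -0.10.

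Of 23 genes of cholesterol synthesis and uptake tested, 1 was higher and 0 were lower, with a median of 0.11, and 6 passed the adjusted p alone. HSD17B7, an enzyme of the pathway (chromosome 1, plus strand, 162760492 to 162782613, GRCh37), had 4.58 and 4.67 CPM with Roc, against 2.47 and 2.30 CPM with DDR and 6.34 and 6.80 CPM with DMSO (log2 change 0.96 ± 0.20, adjusted p = 0.00841, lost without DDR replicate 2). INSIG1, which retains the sterol sensor in the endoplasmic reticulum, had a change of 0.40 ± 0.09 (adjusted p = 0.0101) that was 0.25 without Roc replicate 2 and 0.52, past the call, without Roc replicate 1, and HMGCS1, an early enzyme of the pathway named after its values were seen, 0.32 ± 0.07 (adjusted p = 0.0133). These levels lay between DDR and DMSO with Roc. Against DMSO, 7 of the 23 fell with Roc and 14 with DDR (beside 2.60% and 7.28% of all protein-coding genes).

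**Figure D3:**
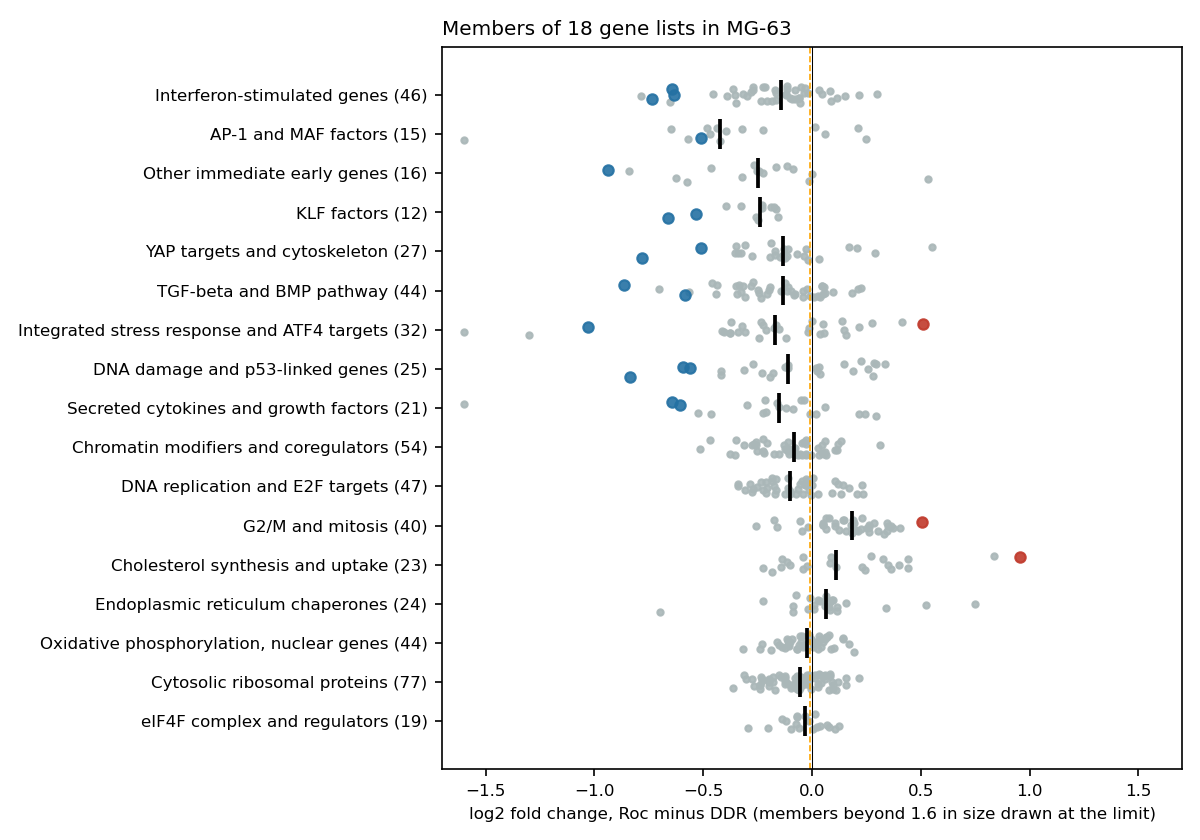
Each point is a tested member of 1 of 17 gene lists (number of members in brackets), placed by its log2 fold change, Roc minus DDR, in MG-63. Red and blue points are called higher and lower with Roc, black ticks are list medians, and the dashed line is the median of all protein-coding genes (-0.01). The AP-1 and MAF median lies at -0.42, the G2/M median at 0.19, and the ribosomal protein and eIF4F medians near the dashed line.

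Transcripts of the compounds' targets and of the translation machinery were not called different between Roc and DDR. EIF4A2, one of the eIF4A helicases, had 965 and 986 CPM with Roc, against 925 and 868 CPM with DDR and 756 and 763 CPM with DMSO. Its log2 change of 0.12 had a 95% interval from -0.03 to 0.27 (adjusted p = 0.388), and it overlaps RFC4 on the other strand. EIF4A1, its paralog, had 6.05 and 4.64 CPM with Roc, against 6.07 and 5.46 CPM with DDR and 3.98 and 4.20 CPM with DMSO, with an interval from -0.51 to 0.27 (adjusted p = 0.797). The EIF4A1 level is uncertain, since the gene shares exons on its strand with the readthrough gene SENP3-EIF4A1, and the sign of its change turned without Roc replicate 2 (0.068).

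Of 19 eIF4F genes and regulators, 28 other initiation factors, 77 ribosomal proteins and 44 nuclear genes of oxidative phosphorylation, 0 were called, with medians of -0.03, -0.05, -0.06 and -0.02. Of the 77 ribosomal protein genes, 55 were negative, and 4 passed the adjusted p alone, all lower with Roc. In the other lists just named, 0 passed it. The 19 eIF4F genes ranged between -0.29 and 0.12. Over all protein-coding genes, the 95% interval lay within ±0.5 for 7,899 (64.5%) and within ±1 for 85.3%, with a median half-width of 0.22. For the remaining 35.5%, the data do not bound the difference to ±0.5, and a p that misses the threshold does not show that the compounds act alike. Chromatin modifiers and coregulators also had 0 calls of 54, yet 41 were negative (median -0.08). EP300, a histone acetyltransferase named after its values were seen, had 193 and 188 CPM with Roc, against 267 and 259.8 CPM with DDR and 116 and 109.6 CPM with DMSO (log2 change -0.47 ± 0.07, adjusted p = 0.000691). Among all 51 lists, 7 distinct genes were called higher and 28 lower, of 1,339 tested, beside 0.482% and 0.645% of all protein-coding genes.

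Set against the shared DMSO libraries, Roc mostly lay between DDR and vehicle. Roc against DMSO gave 639 higher (5.22%) and 318 lower (2.60%) protein-coding genes, 7.81% of those tested, and DDR against DMSO gave 1,297 higher (10.6%) and 891 lower (7.28%), 17.9%. The comparisons use the same 2 DMSO libraries and are given side by side for that reason. On the first principal component (42.3% of the variance), Roc libraries lay at 9.02 and 5.71, DDR libraries at 28.6 and 33.1, and DMSO libraries at -38.9 and -37.5. Later components split replicates. On the second (18.9%), DDR replicate 1 lay at -1.82 and DDR replicate 2 at 30.3. On the third (15.6%), Roc replicate 1 lay at 24.7 and Roc replicate 2 at -31.0. The Roc mean lay between the DDR and DMSO means for 59.2% of protein-coding genes, for 82.3% of those called lower and for 57.6% of those called higher. For 42.4% of the genes called higher, the DMSO mean lay between those of Roc and DDR, beside 17.5% of all protein-coding genes.

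The called genes were picked with the same Roc and DDR libraries that enter their changes against DMSO. That choice itself favours the counts and medians given here. Of the 79 genes lower with Roc than with DDR, 46 were called higher against DMSO with both compounds, 24 with DDR alone and 7 with neither. One gene, MXRA5, was called lower with Roc and higher with DDR, and rests on DDR replicate 2 (below). Their median change against DMSO was 0.58 with Roc and 1.27 with DDR. Of the 59 genes higher with Roc, 33 were called lower against DMSO with DDR alone, 10 with both and 15 with neither, with medians of -0.08 with Roc and -0.74 with DDR. AVIL, an actin-binding protein of the villin family, was the 1 of them called higher against DMSO with Roc, with 4.54 and 6.19 CPM with Roc, against 3.01 and 3.11 CPM with DDR and 3.29 and 2.91 CPM with DMSO (log2 change, Roc minus DDR, 0.82 ± 0.22, adjusted p = 0.0325). Its call was lost without either DDR library and without Roc replicate 2, and it overlaps TSFM on the other strand.

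**Figure D4:**
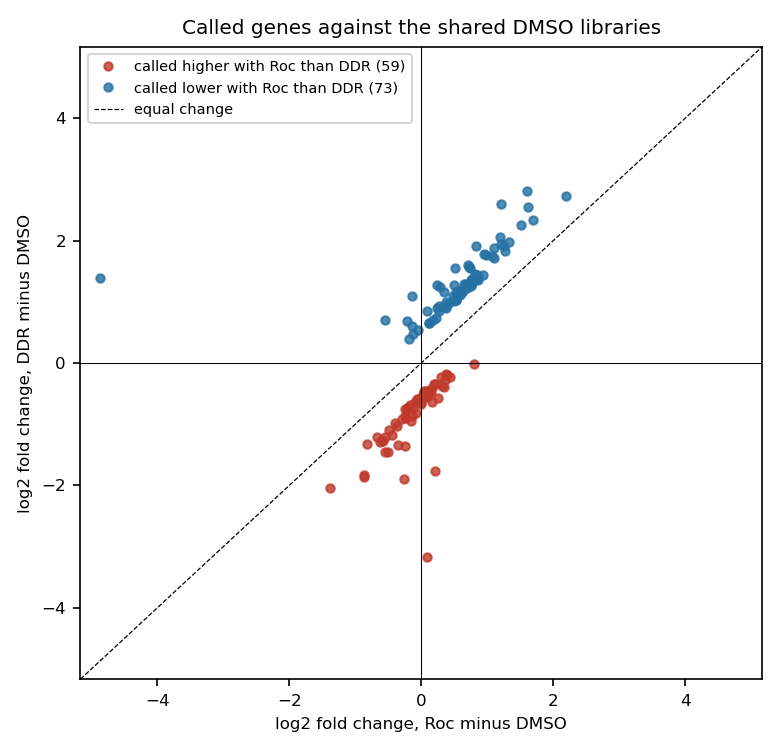
Each point is a protein-coding gene called between the compounds whose Roc and DDR libraries do not overlap (59 higher in red, 73 lower in blue), with its log2 fold change against DMSO for Roc on the horizontal axis and for DDR on the vertical axis. Both axes use the same DMSO libraries and the colours follow from the side of the dashed line of equal change. Most blue points lie above zero on both axes, with medians of 0.58 for Roc and 1.27 for DDR over all 79 genes called lower.

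DDR replicate 2 carried transcripts that DDR replicate 1 and both Roc libraries hardly held. COL11A1 had 6 and 2 counts with Roc, against 1 and 145 counts with DDR and 50 and 29 counts with DMSO. MXRA5 had 0 and 2 counts with Roc, against 1 and 404 counts with DDR and 64 and 35 counts with DMSO. The same pattern, with DDR replicate 2 high and DDR replicate 1 at 0 or 1 counts, held for HAPLN1 (112 counts in DDR replicate 2), IGFBP5 (466), CA2 (67) and FAT3 (44). These are extracellular matrix, growth factor binding, carbonic anhydrase and cadherin genes, all called lower with Roc although the groups overlap, and without DDR replicate 2 the fitted changes of COL11A1 and IGFBP5 turned to 2.30 and 3.86. They are the 6 of the 79 lower genes whose Roc and DDR libraries overlapped. The other 73 lower genes and all 59 higher genes did not overlap, as was true of 49.1% of protein-coding genes.

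No other MG-63 library held more than 1 gene at 2 CPM or more and at least 5 times the level of every other library, whereas DDR replicate 2 held 4 (FOS, HAPLN1, IGFBP5 and MXRA5). In Saos2, HAPLN1 and FAT3 were abundant, between 817 and 1288 CPM and between 706 and 1003 CPM. COL11A1 lay between 136 and 217 CPM there and IGFBP5 between 16.2 and 34.9 CPM. MXRA5 was at most 0.50 CPM and CA2 at most 5.49 CPM. PTN, a secreted growth factor named after its values were seen, had 0 and 0.0292 CPM with Roc, against 0.103 and 3.01 CPM with DDR and 0.521 and 0.657 CPM with DMSO, and its call was also lost without DDR replicate 2. The source of these transcripts was not tested.

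Transcripts other than protein-coding ones were more often called higher than lower. Of 3,056 tested, 40 were higher with Roc (1.31%) and 6 lower (0.196%), with a median of 0.15. The 723 antisense genes gave 13 higher and 0 lower calls (median 0.23), and the 750 lincRNA genes 14 higher and 3 lower (median 0.22). Against DMSO, antisense genes had medians of -0.10 with Roc and -0.37 with DDR, and lincRNA genes -0.04 and -0.27. AP000473.8 had 3.68 and 4.26 CPM with Roc, against 1.697 and 1.54 CPM with DDR and 1.95 and 2.27 CPM with DMSO (log2 change 1.30 ± 0.26, adjusted p = 0.00633). Its call was lost without DDR replicate 2 (1.22) and without Roc replicate 2 (1.18), and DESeq2 gave 1.29 with no adjusted p. Without a known strand setting, reads of an antisense gene and of its partner cannot be told apart.

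Base composition differed between the genes called in each direction. The longest transcript of the protein-coding genes had a median GC content of 42.1% for those higher with Roc and 52.6% for those lower, beside 47.5% over all tested. When the dependence on GC content and transcript length was fitted and removed per library, there were 117 calls, 89 of them among the 138, and JUN (-0.49), KIF14 (0.49), AMOTL2 (-0.46), KLF13 (-0.44), ASNS (0.42) and HMMR (0.35) then fell short of the fold minimum while their adjusted p stayed between 0.00101 and 0.0267. IFIT2, IFIT3, RGS17, DDIT4, BAMBI and AJUBA stayed called. Whether this dependence is technical was not tested.

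Most genes called in MG-63 had the opposite sign in Saos2. At 40 nM Roc and 7 nM DDR, 395 protein-coding genes were higher (3.00%) and 175 lower (1.33%) with Roc (4.33% of 13,168 tested), a count of 375 without Saos2 DDR replicate 1 and 996 without Saos2 DDR replicate 2. Of the 127 genes called in MG-63 and tested in Saos2, 97 (76.4%) had the opposite sign there. That share was not computed over all 11,491 genes tested in both lines, whose changes also correlated negatively (below). The 74 lower in MG-63 had a median of 0.34 in Saos2 with 55 positive, and the 53 higher in MG-63 had a median of -0.25 with 11 positive, beside 55.8% positive over the 11,491 genes tested in both lines. In both lines 26 genes were called, which is 20.5% of the 127 and 5.37% of the 484 called in Saos2, and 24 of the 26 had opposite signs: 19 were lower in MG-63 and higher in Saos2, and 5 the reverse. AVIL (higher in both) and IGFBP5 (lower in both) had the same sign.

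Across the genes tested in both lines, the changes had a Pearson correlation of -0.19 and a Spearman correlation of -0.35, given as a description since genes are not independent replicates and each line's values share its libraries. The share of opposite signs, recomputed after seeing the data, lay between 72.4% (without Saos2 DDR replicate 1) and 86.0% (without MG-63 DDR replicate 2) over 30 settings. The difference itself, an interaction in 1 fit of all 15 libraries, was called for 94 of the 127 genes, whose MG-63 values also enter it, and in all for 361 genes higher (2.61%) and 795 lower (5.74%) in MG-63 relative to Saos2 (8.34% of 13,857). That total of 1,156 was 610 without MG-63 DDR replicate 2, 723 without MG-63 Roc replicate 2 and 1,864 without Saos2 DDR replicate 2. The ratio of Roc to DDR doses differed between the lines, so line and dose cannot be told apart.

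**Figure D5:**
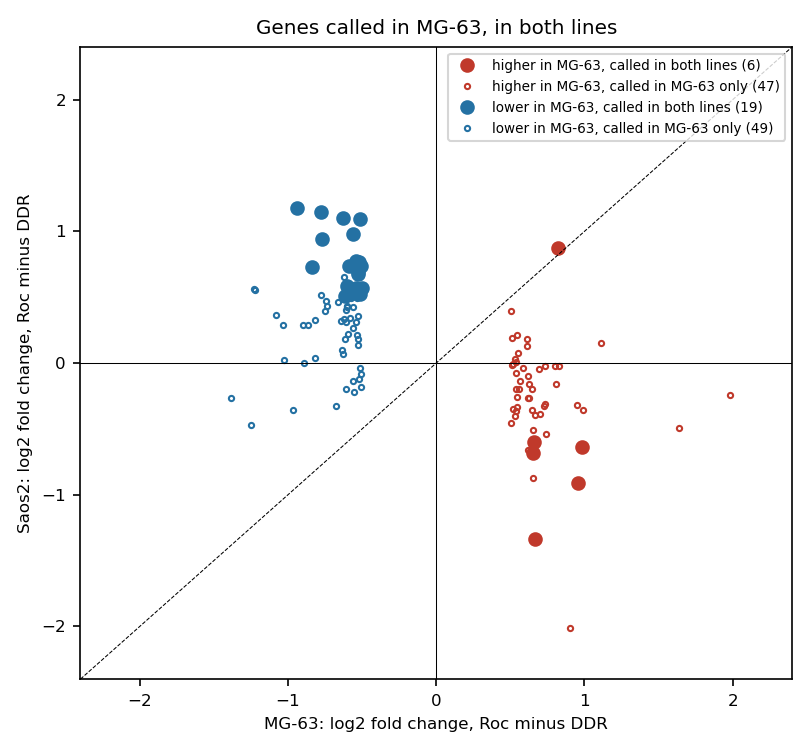
Log2 fold changes, Roc minus DDR, of protein-coding genes called in MG-63, with MG-63 on the horizontal axis and Saos2 on the vertical axis. Large points are called in both lines, small open points in MG-63 alone, red is higher and blue lower with Roc in MG-63, and the dashed line marks equal change. The 6 genes whose MG-63 groups overlap are left out, and 119 points lie within the axes. Most blue points lie above zero and most red points below zero in Saos2.

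JUN and AJUBA show the turn in single libraries. In Saos2, JUN had 208, 180 and 199 CPM with Roc, against 77.1, 102 and 95.3 CPM with DDR and 24.8, 21.6 and 25.1 CPM with DMSO (log2 change 1.10, adjusted p = 2.09e-07). AJUBA had 365, 312 and 341 CPM with Roc, against 148, 166 and 145 CPM with DDR and 83.7, 77.2 and 75.7 CPM with DMSO (log2 change 1.15, adjusted p = 1.06e-08). Both genes were above vehicle with either compound in either line. The order of the compounds was Roc over DDR in Saos2 and DDR over Roc in MG-63, with differences between the lines of -1.62 for JUN and -1.93 for AJUBA (adjusted p = 1.60e-07 and 2.19e-09).

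HSD17B7 gave the mirror image. In Saos2 it had 3.20, 3.38 and 3.20 CPM with Roc, against 6.69, 5.79 and 5.93 CPM with DDR and 14.1, 17.7 and 14.7 CPM with DMSO (log2 change -0.91, adjusted p = 0.000813). It lay below vehicle with either compound in either line, lower with Roc in Saos2 and lower with DDR in MG-63, and the difference between the lines was 1.86 (adjusted p = 6.27e-05). DKK1, a secreted WNT inhibitor, differed between the lines and was not called in MG-63, with 320 and 321 CPM with Roc, against 328 and 337 CPM with DDR there (95% interval from -0.20 to 0.10), and 10.3, 11.4 and 12.1 CPM with Roc, against 32.6, 29.1 and 35.4 CPM with DDR in Saos2 (log2 change -1.52). Among the lists, the Saos2 medians were 0.44 for AP-1 and MAF factors, 0.14 for interferon-stimulated genes, -0.25 for G2/M genes and -0.30 for cholesterol genes, each of the opposite sign to MG-63. Other lists kept their sign. In MG-63 and Saos2, medians were -0.06 and -0.10 for ribosomal proteins, -0.20 and -0.23 for replication-dependent histones, and 0.07 and 0.24 for circadian clock genes. The lists of each kind were not counted.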

How the data were processed

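The authors deposited raw counts per gene for each library, made from 100-bp paired reads of stranded mRNA libraries. Reads were filtered with Bowtie2 2.5.1, aligned to GRCh37 with STAR 2.7.3a and counted with HTSeq 0.11.2, per the labels and methods. Neither the strand setting nor the annotation release is given in the sources used here. The other 55 per-sample columns (normalized counts, FPKM) and the authors' own test results (fold changes and p-values) were not used.

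Genes were kept by filterByExpr (15,303 of 57,773 in MG-63), scaled by TMM and, with all 3 groups of each line in 1 model, tested with edgeR 4.0.16 in R 4.3.3 (quasi-likelihood F test, Benjamini-Hochberg adjustment over all genes tested). Every adjusted p comes from edgeR. CPM are TMM-scaled counts per 1e6. Overlaps and coordinates come from GENCODE v44 on GRCh37. Alternatives used other scalings and filters, DESeq2 1.42.0, limma-voom 3.58.1, thinning, removal of a length and GC dependence, a replicate block, and leaving out single libraries. The fit was tested on simulated data.

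Named genes are the 15 largest separated changes of at least 2 CPM and the 10 smallest p in each direction, called list members, genes called in both lines, the 5 smallest p each way between the lines, genes opposite against DMSO, genes the study names, and the 3 largest noncoding changes each way. Others are said to be named after their values were seen. The contrast, the lists and the rule were chosen with earlier results of these data known. The share of opposite signs between the lines under other settings was added after seeing the data. Results for some genes and 1 list are not reported here.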

Additional observations from a re-analysis of the deposited data

Results flagged for a closer look

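The difference between the lines in Roc against DDR was called for 1,156 protein-coding genes by the interaction test (edgeR's quasi-likelihood test), and the differences of 24 of them are given here. Differences are MG-63 minus Saos2 on the log2 scale, so a negative value means that Roc relative to DDR was lower in MG-63 than in Saos2. Among genes lower with Roc in MG-63, the difference was -2.12 for IER5L, -1.93 for AJUBA, -1.74 for IRF1, -1.72 for CDC42EP1, -1.62 for JUN, -1.58 for SESN2, -1.55 for GADD45A, -1.46 for LBH, -1.34 for GADD45B, -1.26 for AMOTL2, -1.23 for LUZP1, -1.18 for IFIT2, -1.17 for BAMBI and -1.08 for ELF1. Among genes higher with Roc in MG-63 it was 1.86 for HSD17B7, 1.61 for CARF, 1.33 for ARHGEF39 and 1.03 for SEMA6D. CARF, ARHGEF39 and IFIT2 share exonic bases with a neighbour on the other strand.

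Genes not called in MG-63 made up the rest. SERTAD2 differed by -1.33 and BCOR by -1.24, while DKK1 differed by 1.46, INSIG1 by 1.31, ALDH1A3 by 1.17 and IDH1 by 1.06. IRF1 in Saos2 had 43.5, 39.2 and 41.0 CPM with Roc, against 21.1, 19.0 and 17.4 CPM with DDR and 18.1, 13.3 and 14.7 CPM with DMSO, and IFIT2 had 21.7, 22.9 and 21.9 CPM with Roc, against 15.4, 15.8 and 17.9 CPM with DDR. The groups of MG-63 and Saos2 hold 2 and 3 libraries, too few for a formal test for outlying samples. DDR replicate 2 of MG-63 stood apart in 4 genes and lay away from DDR replicate 1 on the second principal component, as given above.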

How the results depend on the processing

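Of 138 protein-coding genes called between Roc and DDR in MG-63, other scalings, filters and tools gave between 123 (DESeq2, 121 shared) and 198, and removal of the length and GC dependence 117. The count moved most with the fold minimum (580 with none, 18 at 1) and with single libraries left out (54 to 262). Calls among list genes (35) moved to 136 with no fold minimum, 7 at a fold minimum of 1, and 21 to 52 with a library left out, lowest without DDR replicate 2. In Saos2, 570 calls became 375 to 996, and the 1,156 differences between the lines 610 to 1,864, with a library left out. Against DMSO, leaving out 1 library gave 759 to 989 calls for Roc and 1,919 to 2,262 for DDR.

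Directions turned without DDR replicate 2 for COL11A1 (2.30), MXRA5 (0.34) and IGFBP5 (3.86), and without Roc replicate 2 for the uncalled EIF4A1 (0.068). Over the left-out libraries the log2 changes ran from -4.96 to 2.30 for COL11A1, from -10.58 to 0.34 for MXRA5, from -5.68 to 3.86 for IGFBP5 and from -0.32 to 0.068 for EIF4A1. The cause was not tested. Replicate numbers did not pair the MG-63 libraries (correlations of deviations between same-numbered libraries from -0.01 to 0.02). In Saos2 such correlations were all positive, from 0.003 to 0.14, against -0.11 to 0.028 between libraries of different number. The reported fits held no replicate block, and whether Saos2 libraries were paired was not tested. The replicate block gave 142 calls in the main contrast, 132 of them shared, and 35 among list genes. It gave 942 and 2,164 against DMSO, 664 in Saos2 (570 without the block) and 1,401 between the lines (1,156 without it). With 2 libraries per group, the 95% interval of the difference was not within ±0.5 for 35.5% of protein-coding genes, which limits what the lack of a call shows.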
